A study of Mus musculus with 10 samples.

Results

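The genes described here encode the channels of the cardiac delayed rectifier potassium currents that are known from long QT syndrome, with their auxiliary subunits and an anchoring protein. They were chosen by name, as *Kcnq1*, *Kcnh2*, *Kcne1*, *Kcne2*, *Kcne3*, *Kcne4* and *Akap9*, and all 7 were found among the 23195 genes of the deposited table. The study compared hearts of 5 wild-type and 5 *Nos1ap* null male mouse embryos at embryonic day 13.5 by stranded RNA-seq of polyA RNA, to look for changes of the heart transcriptome that follow loss of *Nos1ap*. *Nos1ap* encodes an adaptor of neuronal nitric oxide synthase, and variants near the human gene are associated with the QT interval. The strain of both groups is labelled C57BL6/J. The null embryos were homozygous for the tm1d allele, which lacks exon 4 in every tissue. It descends from ES cells of the C57BL/6N line JM8A3.N1 that carried the targeted tm1a allele, through crosses with ACTB-Flpe and CMV-Cre mice, of which the latter delete in the germline, and was kept by breeding to C57BL/6J. The controls were wild type at *Nos1ap*.

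The delayed rectifier currents repolarize the ventricular action potential in large mammals. KCNQ1 forms the pore of the slow current and KCNE1 is its auxiliary subunit, whereas KCNH2 (also called HERG) forms the pore of the rapid current. The other KCNE proteins can also join these pores and alter their gating, and AKAP9 (Yotiao) holds protein kinase A and its partners at KCNQ1. In human long QT syndrome, loss of channel function delays repolarization. The adult mouse ventricle repolarizes mainly through other potassium currents, and these channels contribute more before birth.

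Levels are given as normalized counts, which are read pairs per gene and library after division by a size factor that corrects for depth. The table lists the mean of each group, and the values of single libraries given here were derived from these means for 6 of the 7 genes. Libraries are numbered from 1 to 5 within each group by descending size factor, and these are not the replicate numbers of the labels. An estimated 11328233 to 14023004 read pairs were assigned per library. *Nos1ap*, the targeted gene, had 126 to 161 normalized counts in the wild-type and 31.1 to 44.4 in the null libraries and the groups did not overlap. The cardiomyocyte genes *Tnnt2* (37532 and 37652 normalized counts, the authors' means of wild type and null) and *Myh7* (128162 and 129864) were at high levels in both groups. Wild-type library 3 stood apart by neuronal and glial genes, whose 6 markers with derived values (of 9) summed to 1617 normalized counts, against 207 as the lowest wild-type sum and 198 to 248 in the null libraries. Each embryo's litter is not given by the labels, so the p-values measure the spread between these libraries. In whole hearts, fewer cells of a type and less RNA per cell cannot be told apart.

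For orientation, the stretches before the annotated starts are shown for the genes with the highest and the lowest level per length, *Kcnh2* and *Kcne2*. Each is 250 bases long and ends just before the start, is written 5′ to 3′ from the RefSeq promoter windows on GRCm38.p6, and has each CG in capitals. The first lies at chr5:24329592-24329841 on the minus strand and the second at chr16:92292139-92292388 on the plus strand.
Kcnh2: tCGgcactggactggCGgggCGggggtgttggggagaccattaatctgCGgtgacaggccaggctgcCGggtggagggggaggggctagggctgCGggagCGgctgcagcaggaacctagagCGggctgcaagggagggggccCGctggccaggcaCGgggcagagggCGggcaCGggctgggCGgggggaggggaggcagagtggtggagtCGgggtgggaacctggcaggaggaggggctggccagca
Kcne2: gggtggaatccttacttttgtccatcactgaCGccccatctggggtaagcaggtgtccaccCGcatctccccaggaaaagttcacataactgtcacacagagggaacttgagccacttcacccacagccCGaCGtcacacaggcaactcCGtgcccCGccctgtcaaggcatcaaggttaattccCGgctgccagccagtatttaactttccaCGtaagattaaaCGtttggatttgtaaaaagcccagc
The *Kcnh2* stretch had a GC content of 73.6%, higher than 94.7% of the 32851 windows, and 14 CG. The *Kcne2* stretch had a GC content of 52.4% and 9 CG, against medians of 52.4% and 6 over all windows. A further *Kcne2* window, before the start of the transcript Kcne2-202 at chr16:92295366-92295615, had a GC content of 48% and 1 CG. The start used for *Kcnh2* is that of the transcript Kcnh2-202 and lies 22013 bases inside the gene from its 5′ end. The table counts whole genes, so it does not separate this form from the longer ones. Windows for 5 of the 7 genes were in the reference table, and *Kcnq1* and *Kcne1* had none there.

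None of the delayed rectifier genes passed the test between genotypes. With limma, which tested 5 of the 7 (*Kcne2* fell under the minimum mean of 10, and *Kcnh2* had no settled library values), 0 passed an FDR of 1%, against 3 of all 10329 genes tested (0.029%), and 0 had an unadjusted p under 0.05, against 364 of all genes (3.52%). The 3 genes were *Nos1ap*, *Mt2* and *Gm7694*, of which 1 was higher in null (0.00968% of genes tested) and 2 were lower (0.0194%). Among the 5, 3 had a positive and 2 a negative log2 fold change (null minus wild type), with a median of 0.06, against 47.9% positive and a median of -0.0045 over all genes tested. The groups overlapped for each of the 6 genes with library values. Over all genes tested, the groups did not overlap for 0.784%. The intervals below give how large a difference these libraries would still allow, since a p-value over the threshold does not show that levels were equal.

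**Figure D1:**
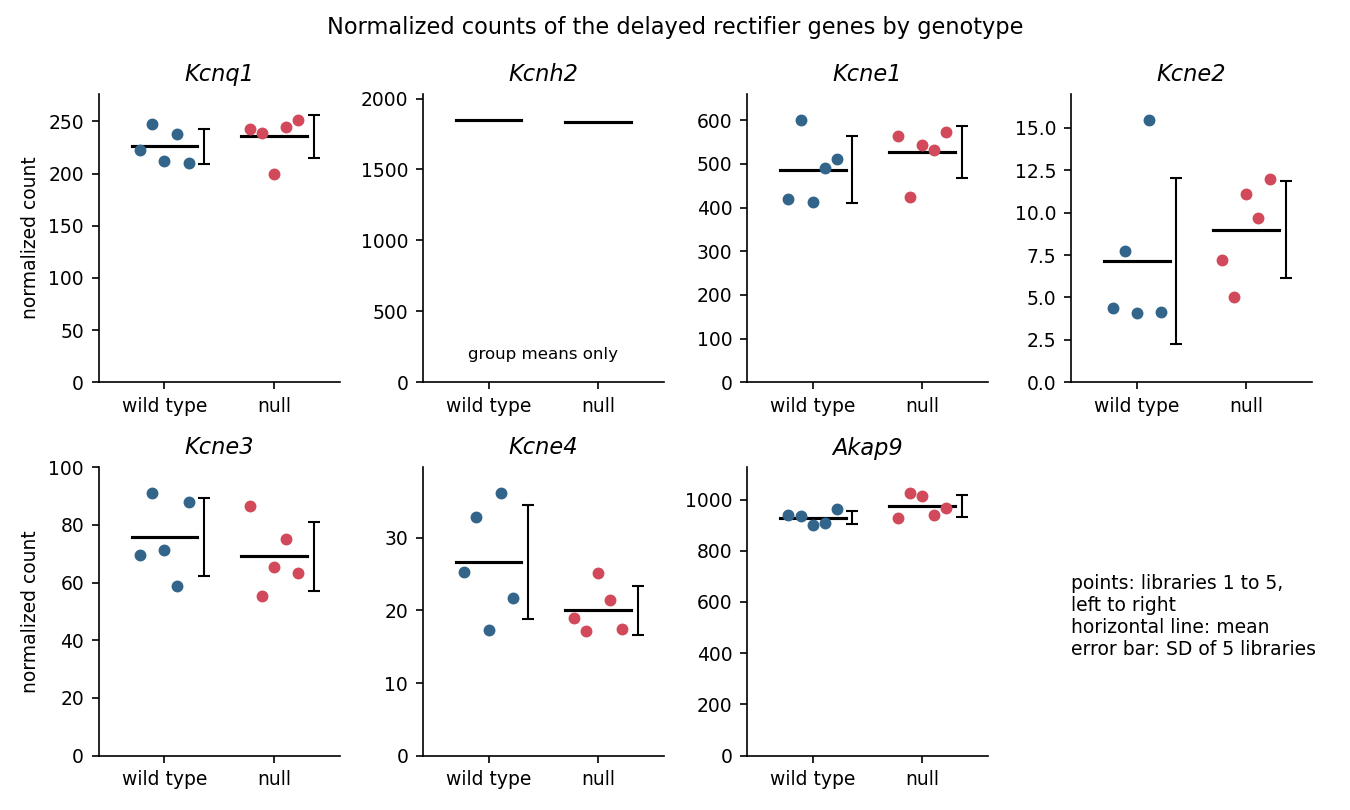
Normalized counts (y axis, each starting at 0) of the 7 genes in wild-type (blue) and *Nos1ap* null (red) libraries, as points for libraries 1 to 5, with the mean as a line and the SD of 5 libraries as an error bar. *Kcnh2* has the authors' group means only, and the points of both groups overlap in the other 6 panels.

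The pore subunit of the slow current, *Kcnq1*, spans chr7:143106362-143427042 (plus strand, GENCODE M21 on GRCm38). It had 223, 248, 212, 238 and 210 normalized counts in wild-type libraries 1 to 5 and 243, 239, 199.6, 245 and 252 in null libraries 1 to 5. The wild-type libraries spread evenly over their range, while 4 of the 5 null libraries lay close together and null library 3 lay below all others of both groups. The means were 226 ± 16.6 in wild type and 236 ± 20.6 in null (SD, n = 5 each). The log2 fold change was 0.06 (SE 0.08, 95% interval -0.10 to 0.21, limma with Benjamini-Hochberg adjustment, adjusted p = 0.998), and the two-sided exact permutation p for the means was 0.444. The smallest p that 5 against 5 libraries allow is 0.00794. The interval corresponds to 0.934 to 1.16 times the wild-type level.

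*Kcnq1ot1*, the long antisense RNA of the imprinted *Kcnq1* domain, is transcribed from within *Kcnq1* and shares exon bases with it in the annotation. Its authors' means were 2386 in wild type and 2297 in null, more than those of any of the 7 genes. Per the study's methods, the read assignment used the strand, so reads of the 2 genes were separated by orientation. The nearest protein-coding genes were *Trpm5*, with a log2 fold change of -0.28 (SE 0.11, adjusted p = 0.998 by limma), and *Cdkn1c*, an imprinted cell cycle inhibitor with authors' means of 8754 and 8407. *Trpm5* was one of the genes with an unadjusted p under 0.05 (0.0218).

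*Kcnh2*, the pore subunit of the rapid current, spans chr5:24319589-24351604 (minus strand). The authors' means were 1851 normalized counts in wild type and 1835 in null, the highest of the 7 genes. Their log2 ratio was -0.01. More than 1 set of whole counts gives each of these means, so that no library values are given. Over the 144 pairs of sets whose coefficient of variation stayed within 15%, the limma log2 fold change ranged from -0.03 to -0.00073, the unadjusted p from 0.702 to 0.991, and the 95% intervals stayed between -0.20 and 0.18. The exact permutation p ranged from 0.754 to 0.968, and the groups overlapped in all 144 pairs. These bounds hold only for sets within that limit of variation. *Nos3*, the endothelial nitric oxide synthase and the nearest protein-coding gene upstream of *Kcnh2*, 13205 bases away, had authors' means of 1111 and 1098.

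*Kcne1*, the auxiliary subunit of KCNQ1 in the slow current, spans chr16:92345982-92359468 (minus strand). It had 419, 601, 412, 490.2 and 512 normalized counts in wild-type libraries 1 to 5 and 563, 424, 543, 533 and 574 in null libraries 1 to 5. The highest library was wild-type library 2, and null library 2 lay well below the other 4 null libraries, within the range of wild type. The means were 487 ± 77.2 and 528 ± 59.9 (SD, n = 5 each), with a log2 fold change of 0.12 (SE 0.11, 95% interval -0.13 to 0.37, adjusted p = 0.998 by limma) and an exact permutation p of 0.373. Without wild-type library 2, the log2 fold change was 0.20 with an unadjusted p of 0.0457 and an adjusted p of 0.959 (limma). This was the smallest unadjusted p of *Kcne1* among all alternatives. With 1 library left out at a time, its log2 fold change ranged from 0.06 to 0.20. *Kcne1* had the widest spread relative to counting error, since its SD was 3.52 times the SD expected from counting alone in wild type and 2.59 times in null, against 0.814 to 1.84 in wild type and 0.748 to 1.43 in null for the 5 other genes.

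The spread of *Kcne1* followed an axis shared by many genes. After centring within each genotype, for 8417 protein-coding genes whose mean reached 50, the first principal component (each gene weighted equally) held 25.9% of the variance. *Kcne1* had an absolute correlation of 0.81 with it over the 10 libraries. Over all these genes the median was 0.435, and 9.31% were over 0.8. *Kcne3* followed it less (0.626), and *Kcnq1* hardly (0.0148). Null library 2 and wild-type library 1 were at one end of this axis, with scores of -0.655 and -0.537, and the other 8 libraries lay between -0.0568 and 0.329. What this axis stands for was not tested.

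*Kcne2*, *Kcne3* and *Kcne4* encode further auxiliary subunits, of which KCNE2 can join KCNH2 and KCNQ1, and KCNE3 is known to hold KCNQ1 open in epithelia. *Kcne2* (chr16:92292389-92298129, plus strand) was barely detected, with 4 to 15 read pairs per library. It had 4.35, 7.74, 4.07, 15.5 and 4.14 normalized counts in wild-type libraries 1 to 5 and 7.20, 5.03, 11.1, 9.66 and 12.0 in null libraries 1 to 5. Wild-type library 4 was the highest of all, wild-type library 2 lay within the null range, and the other 3 wild-type libraries lay below it. The means were 7.16 ± 4.90 and 8.99 ± 2.86 (SD, n = 5 each), and the exact permutation p was 0.476. With a minimum mean of 2 in place of 10, the log2 fold change was 0.41 (SE 0.37, 95% interval -0.36 to 1.17, adjusted p = 0.998 by limma), and 3 of the 11954 genes tested passed (0.0251%). The interval corresponds to 0.781 to 2.25 times the wild-type value of normalized count + 1, so these libraries would still allow a difference within it. At so low a count, the range for the level itself is wider. Without wild-type library 4 the log2 fold change was 0.70. *Kcne2* is known from the choroid plexus and the stomach, and some genes listed as markers of these tissues were detected. The 3 choroid plexus markers summed to 26.8 to 36.6 normalized counts in wild type and 20.4 to 36.3 in null, mostly from *Folr1* (24.1 and 23.1, authors' means), while *Otx2* was at 0.781 and 0.763. The 5 markers of foregut and stomach epithelium summed to 128 to 220 in wild type, the highest in library 3, and 124 to 157 in null. Most of this sum came from *Krt8* (141 and 136, authors' means). *Epcam* (6.15 and 3.44), *Cdh1* (5.22 and 1.96), *Sox2* (7.88 and 3.32) and *Krt5* (1.23 and 0.416) were low. The part of either tissue in the *Kcne2* reads was not tested.

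*Kcne3* spans chr7:100176502-100184869 (plus strand). It had 69.6, 91.0, 71.3, 58.8 and 87.9 normalized counts in wild-type libraries 1 to 5 and 86.4, 55.3, 65.5, 75.2 and 63.2 in null libraries 1 to 5. High and low libraries occurred in both genotypes. The means were 75.7 ± 13.5 and 69.1 ± 12.0 (SD, n = 5 each), the log2 fold change was -0.13 (SE 0.14, 95% interval -0.42 to 0.17, adjusted p = 0.998 by limma), and the exact permutation p was 0.421.

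*Kcne4*, whose product inhibits KCNQ1, spans chr1:78816758-78820028 (plus strand). It had 25.2, 32.9, 17.3, 36.1 and 21.7 normalized counts in wild-type libraries 1 to 5 and 18.9, 17.1, 25.2, 21.5 and 17.4 in null libraries 1 to 5. The 2 highest libraries were wild type, but wild-type library 3 lay at the low end of the null range. The means were 26.7 ± 7.79 and 20.02 ± 3.37 (SD, n = 5 each). The log2 fold change of -0.36 was the most negative of the 5 genes tested, with a 95% interval from -0.82 to 0.10 (SE 0.22, adjusted p = 0.998 by limma) and an exact permutation p of 0.119. Without wild-type library 3, its lowest wild-type library, the log2 fold change was -0.50, with an unadjusted p of 0.0257 and an adjusted p of 0.998 (limma). This was the smallest unadjusted p of *Kcne4* among all alternatives. Library 3 is also the one with high neuronal markers, and a link to *Kcne4* was not tested. Without wild-type library 4 the log2 fold change was -0.24 (adjusted p = 0.998 by limma).

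*Akap9* encodes the anchor that brings protein kinase A to KCNQ1, although the long forms of the same gene also serve the centrosome and Golgi. It spans chr5:3928054-4081310 (plus strand), and its 3′ end overlaps that of *Cyp51* on the other strand. It had 938, 937, 901, 909 and 962 normalized counts in wild-type libraries 1 to 5 and 926, 1025, 1015, 939 and 968 in null libraries 1 to 5. Null libraries 2, 3 and 5 lay above all wild-type libraries, and null libraries 1 and 4 lay within the wild-type range. The means were 929 ± 24.6 and 975 ± 44.3 (SD, n = 5 each), with a coefficient of variation of 2.65% and 4.54%. This was the narrowest relative spread of the 6 genes with library values. Its counts were also the highest of the 6, where counting error is relatively smallest. At such means, library values are also less likely to be settled where the spread is wide. The narrow spread can therefore not be read as a trait of the gene. The log2 fold change was 0.07 (SE 0.04, 95% interval -0.01 to 0.15, adjusted p = 0.998 by limma), and the exact permutation p was 0.0952. The interval corresponds to 0.99 to 1.11 times the wild-type level.

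**Figure D2:**
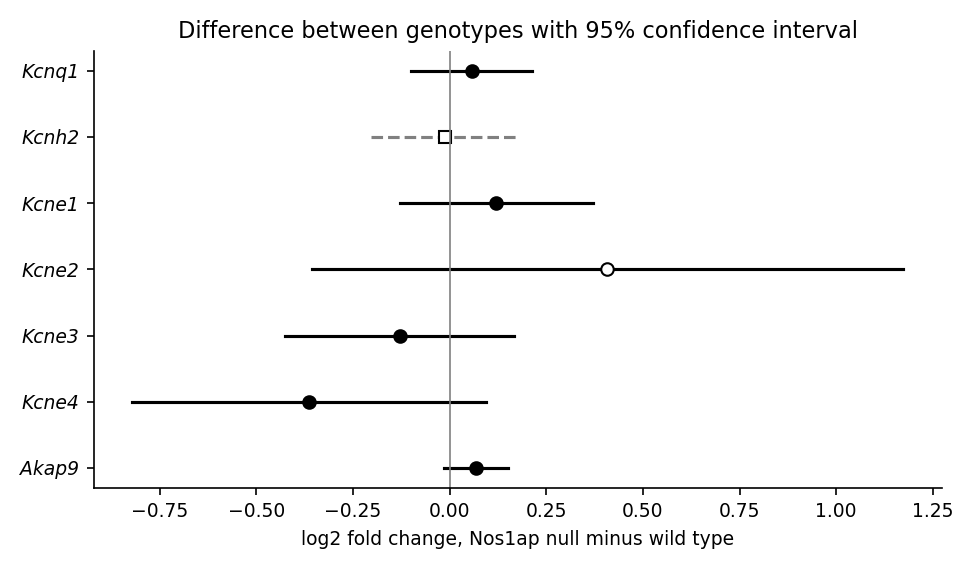
Log2 fold change of null minus wild type (x axis) with its 95% confidence interval from limma. The open circle of *Kcne2* is from the fit with a minimum mean of 2, the square of *Kcnh2* is the log2 ratio of the authors' means with the dashed range over 144 pairs of count sets, and all intervals include 0.

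To compare levels between genes, normalized counts were divided by the length of the merged exons in kb. By the mean of both genotypes, the order was *Kcnh2* (380.4 normalized counts per kb), *Kcne1* (158), *Kcnq1* (56.4), *Akap9* (44.6), *Kcne3* (40.7), *Kcne4* (8.78) and *Kcne2* (4.57). *Kcnh2* ranked above 92.0% of the 16928 protein-coding genes with a length, *Kcne1* above 78.7%, *Kcnq1* above 55.3%, and *Kcne2* above 24.5%. In the same order, the wild-type levels were 382, 152, 55.2, 43.5, 42.6, 10.03 and 4.05 and the null levels 379, 164, 57.6, 45.6, 38.9, 7.54 and 5.09 normalized counts per kb. The 2 genotypes therefore gave the same order.

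Neighbours in this order were compared within the 10 libraries by an exact two-sided sign-flip permutation test, for which the smallest p is 0.00195, with 5 comparisons adjusted together. *Kcne1* was higher than *Kcnq1* in 10 of 10 libraries (2.26 to 3.47 times, adjusted p = 0.00326), *Kcnq1* higher than *Akap9* in 10 of 10 (1.03 to 1.38 times, adjusted p = 0.00326) and *Kcne3* higher than *Kcne4* in 10 of 10 (2.43 to 6.83 times, adjusted p = 0.00326). *Kcne4* was higher than *Kcne2* in 9 of 10 libraries (0.967 to 3.86 times, adjusted p = 0.00488 by the exact test). *Akap9* and *Kcne3* did not differ beyond their spread with this length, with *Akap9* higher in 7 of 10 libraries (0.858 to 1.54 times, adjusted p = 0.119 by the exact test). *Kcnh2* was placed first by its group means, and in each of the 144 pairs of sets it was 1.66 to 3.65 times *Kcne1* in the libraries. With the longest transcript in place of merged exons, the means gave the same order for all 21 pairs of genes. The outcome of the test changed for 2 of the 5 comparisons of neighbours, while their direction by mean log2 ratio was kept. *Kcnq1* was then higher than *Akap9* in 8 of 10 libraries (0.852 to 1.15 times, adjusted p = 0.172 by the exact test) and *Akap9* higher than *Kcne3* in 10 of 10 (1.04 to 1.87 times, adjusted p = 0.00326 by the exact test). How clearly *Kcnq1*, *Akap9* and *Kcne3* are separated from each other therefore depends on the length used. A gene-level count divided by 1 length assumes that the annotated forms share it, which matters most for *Akap9*, whose merged exons (21350 bases) exceed its longest transcript (13123 bases).

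**Figure D3:**
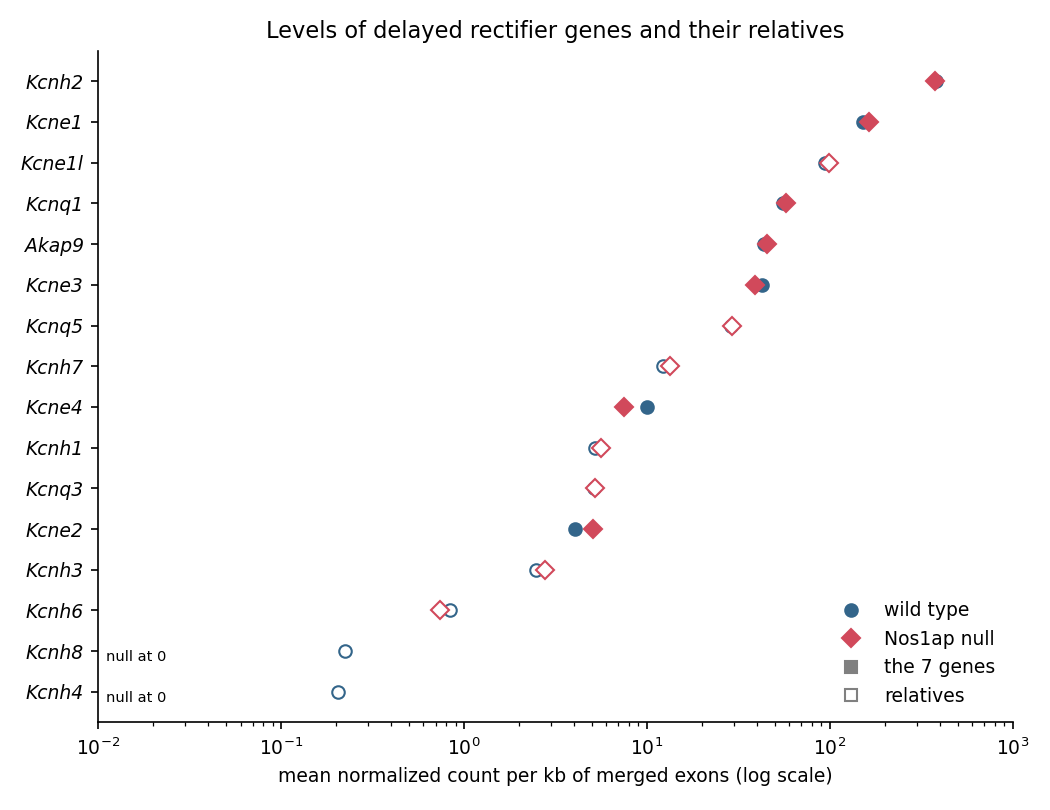
Mean normalized count per kb of merged exons (x axis, log scale) of the 7 genes (filled) and 9 of their relatives (open) in wild type (blue circles) and *Nos1ap* null (red diamonds). *Kcnh2* and *Kcne1* are the highest, and *Kcnh4* and *Kcnh8* are listed at 0 in null.

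The ratio of subunits within a library does not depend on the size factor. The *Kcne1* to *Kcnq1* ratio, per kb, was 2.40, 3.09, 2.48, 2.62 and 3.11 in wild-type libraries 1 to 5 and 2.95, 2.26, 3.47, 2.77 and 2.91 in null libraries 1 to 5. The lowest and the highest ratios were both in null libraries. The means were 2.74 ± 0.337 and 2.87 ± 0.433 (SD, n = 5 each), a log2 difference of 0.06 (exact permutation p = 0.627). The summed *Kcne1* to *Kcne4* level per *Kcnq1* was 3.76 ± 0.446 in wild type and 3.77 ± 0.575 in null (SD, n = 5 each), with a log2 difference of -0.0028 (exact permutation p = 0.992). *Kcne1* makes up most of this sum and *Kcnq1* divides both ratios, so the summed ratio largely repeats the first. From the authors' means, the *Kcnh2* to *Kcnq1* ratio was 6.91 in wild type and 6.58 in null, with no test. The size of these ratios depends on the length used. With the longest transcript, *Kcne1* to *Kcnq1* was 2.05 in wild type and 2.15 in null, and *Kcnh2* to *Kcnq1* was 5.87 and 5.59. These ratios are of RNA per length and say nothing of the make-up of the channels.

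**Figure D4:**
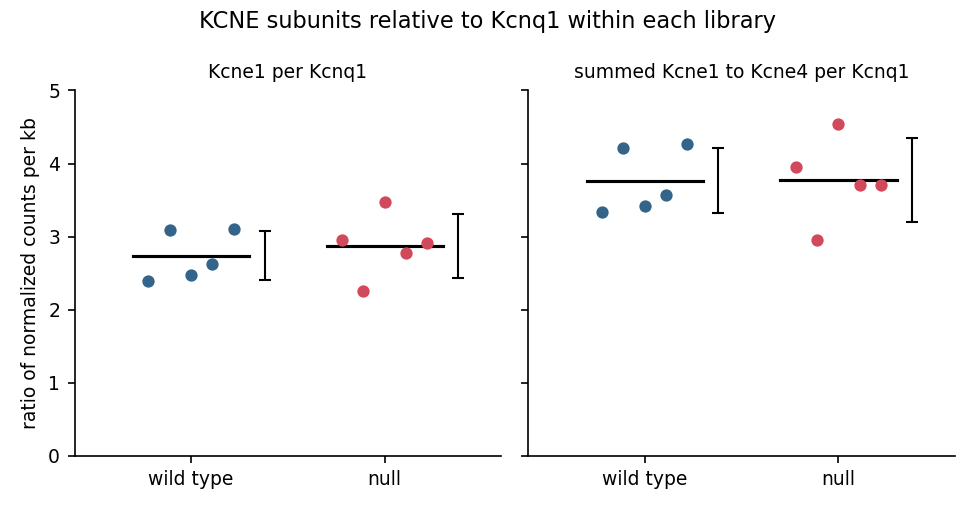
Ratio of normalized counts per kb (y axis) of *Kcne1* to *Kcnq1* (left) and of summed *Kcne1* to *Kcne4* to *Kcnq1* (right) in libraries 1 to 5 of each genotype, with the mean as a line and the SD as an error bar. Null library 2 has the lowest and null library 3 the highest value in both panels.

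Of the relatives of these genes in the KCNQ, KCNH and KCNE families, 11 of 12 listed were in the table and 8 were tested. None passed the FDR of 1% or had an unadjusted p under 0.05, and 7 of the 8 were higher in null by fitted log2 fold change, against 47.9% of all genes tested. The median log2 fold change of the 8 was 0.10, against -0.0045 over all genes tested. The most abundant per length was *Kcne1l* (also called *Kcne5*), with 93.8 normalized counts per kb in wild type and 99.6 in null, between *Kcne1* and *Kcnq1*. It had 145 ± 23.9 and 154 ± 14.3 normalized counts (SD, n = 5 each) and a log2 fold change of 0.10 (SE 0.10, adjusted p = 0.998 by limma). *Kcnq5* (28.8 and 29.1 per kb) and *Kcnh7* (12.2 and 13.4 per kb), of which the first forms an M-type and the second an ERG-type pore, exceeded *Kcne4* and *Kcne2* in both groups.

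Reads of some relatives lay in wild-type library 3 alone. All 4 read pairs of *Kcnh4* and all 5 of *Kcnh8* were in this library. Reads of the neuronal gene *Stmn2* (565 of 869 read pairs) and of the glial gene *Sox10* (139 of 246) were also mostly there, and their part in these values was not tested. The delayed rectifier genes were not high in this library. Among the 5 wild-type libraries it was the lowest for *Kcne1*, *Kcne2*, *Kcne4* and *Akap9*, with 901 normalized counts of *Akap9* against 909 to 962 in the other 4 and 412 of *Kcne1* against 419 to 601.

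The proteins that act on these channels were described by 4 further lists. Together with the relatives, 56 of 57 listed genes were in the table, 23 were tested, 0 passed the FDR of 1% in either direction, and 1 had an unadjusted p under 0.05. Over all genes tested, 0.029% passed and 3.52% had an unadjusted p under 0.05. Among the 23, 18 had a positive and 5 a negative fitted log2 fold change, against 47.9% positive over all genes tested. A further 29 had no settled library values, and 4 lay under the minimum mean. For the 29, the log2 ratios of the authors' means lay between -0.11 (*Ank2*) and 0.11 (*Pde4b*).

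Of the AKAP9 complex and its beta-adrenergic input, 5 of 14 genes were tested and 4 of them were higher by fitted value, with a median log2 fold change of 0.06. *Adcy9*, the adenylyl cyclase known to bind Yotiao, had the lowest value of -0.02 (SE 0.16, adjusted p = 0.998 by limma). Of the folding, trafficking and turnover genes, 1 of 12 was tested, the kinase gene *Sgk1*, at 0.08 (SE 0.07, adjusted p = 0.998 by limma). The chaperones *Hsp90ab1* (29313 and 29761, authors' means) and *Hspa8* (25110 and 24565), which assist folding of KCNH2, and the ubiquitin ligase gene *Nedd4l* (1033 and 1041), which acts on KCNQ1, have group means only.

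Of the other long QT genes, 4 of 12 were tested, with a median log2 fold change of 0.05. *Kcnj5*, a subunit of the acetylcholine-activated potassium channel, had the largest value of 0.12 (SE 0.06, unadjusted p = 0.0434, adjusted p = 0.998 by limma), with 820 to 945 normalized counts in wild type and 842 to 1053 in null. *Cacna1c*, the L-type calcium channel gene, had authors' means of 2376 and 2412. Of the calmodulin and PIP2 modulators of KCNQ1, 5 of 10 were tested, with *Pip5k1b* the largest at 0.11 (SE 0.06, adjusted p = 0.998 by limma) and *Plcb3* the lowest at -0.09 (SE 0.05, adjusted p = 0.998 by limma).

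The genes whose library pattern was most like that of each delayed rectifier gene were named by Pearson r over the 10 libraries, after centring within each genotype, among the 8417 genes described above. They were *Memo1* (0.94), *Aldh5a1* (0.91) and *Mmaa* (0.90) for *Kcnq1*, *Aspn* (0.98), *Gk* (0.97) and *Bcl2l11* (0.96) for *Kcne1*, *Rapgef5* (0.95), *Zfp384* (0.92) and *Nipal2* (0.91) for *Kcne3*, and *Cep295* (0.96), *Rnf34* (0.94) and *Imp3* (0.93) for *Akap9*. The best of so many genes reaches a high r over 10 libraries in any case, and the libraries share depth and the axis above. *Kcne1* had 72 genes with an absolute r over 0.9, whereas the 5 other genes with library values had 4 to 8.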

How the data were processed

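Hearts of 5 wild-type and 5 *Nos1ap* null male embryos were measured, and samples were grouped by the genotype in their titles. Per the labels and methods, the authors checked reads with FastQC 0.11.5, trimmed them with Trimmomatic 0.36, aligned them with STAR to GRCm38 with GENCODE M10 transcripts, assigned them with RSEM 1.2.31 with regard to strand, and compared gene counts with DESeq 1.24.0. The deposited signal values are group means of counts that the authors divided by each library's size factor. The fold changes, log2 fold changes, p-values and adjusted p-values that the authors deposited were not used.

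The group means carry 15 significant digits, and a lattice search found the whole counts of the 5 libraries behind each of them. A set of counts was accepted for means under 200 where only 1 exists. Up to 1000 it was accepted where at most 0.01 other sets as near to equal expression were expected by chance. Under a mean of 1000, this settled 98.9% of 20135 wild-type and 99.1% of 19907 null means, and it leaves out abundant genes. Means from 200 on were less likely to be settled where the libraries spread widely. The search and the test below were checked on simulated data. For protein-coding genes whose mean reached 10, limma 3.58.1 (trended and robust, R 4.3.3) was fitted to log2(normalized count + 1), with Benjamini-Hochberg adjustment over all genes tested and an FDR of 1%. Fold changes are on this log2(value + 1) scale, on which the pseudocount shrinks those of low genes, and they compare means of logs, so they can differ from a ratio of means in either direction. Single values were compared by exact two-sided permutation tests.

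Lengths and positions are from GENCODE M21 on GRCm38, and promoter stretches from RefSeq on GRCm38.p6. Named genes were the 7 genes, *Nos1ap*, the largest and lowest tested of each list and any that passed, overlapping or neighbouring genes, the 3 most similar genes by pattern, and markers. Some genes that these rules select are not reported here. Further list genes and *Mt2* and *Gm7694* were named after their values were seen. Alternatives changed the pseudocount, the minimum mean, gene types, weights, moderation, scaling, the FDR, the length and the libraries included. The genes, lists and tests were chosen with earlier results of these data known. The bounds for *Kcnh2* and the leave-one-out fits for *Kcne2* were added after seeing the data. Marker lists also covered chambers, sinus node, endothelium, epicardium, smooth muscle, mesenchyme, blood and non-cardiac organs, and 0 of their tested genes passed.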

Additional observations from a re-analysis of the deposited data

Results flagged for a closer look

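In 2 of 12 groups of 5 library values (6 genes with library values in 2 genotypes), 1 library lay farther from the others than Dixon's 95% critical value allows, and chance gives about 1 in 20 such groups. For *Kcnq1*, null library 3 had 199.6 normalized counts against 239 to 252 in the 4 other null libraries. Without it the log2 fold change was 0.12 in place of 0.06, with an unadjusted p of 0.118 and an adjusted p of 0.9997 (limma). For *Kcne1*, null library 2 had 424 normalized counts against 533 to 574 in the 4 other null libraries. This library also had the lowest score on the first component described above, -0.655.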

How the results depend on the processing

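No delayed rectifier gene and no list gene passed under any of the 20 alternatives run for these counts, including FDRs of 5% and 10%, and the count over all genes was 2 or 3. The log2 fold change kept its direction for each delayed rectifier gene with library values, in every alternative in which it could be fitted. For *Kcnh2*, the alternatives were sets of counts that all give the same group means. Its sign could therefore hardly change, and that it was kept is no check of the result. With 1 library left out, the log2 fold changes ranged from 0.03 to 0.12 for *Kcnq1*, 0.06 to 0.20 for *Kcne1*, 0.28 to 0.70 for *Kcne2*, -0.21 to -0.05 for *Kcne3*, -0.50 to -0.24 for *Kcne4* and 0.05 to 0.09 for *Akap9*, and that of *Nos1ap* from -1.88 to -1.75. The *Kcne1* to *Kcnq1* log2 difference ranged from -0.0081 to 0.15 and the summed KCNE one from -0.074 to 0.083, so that the signs of both turned. The sign of the *Kcne1* to *Kcnq1* difference turned without null library 3 (-0.0081). That of the summed difference turned without wild-type library 2 (0.04) or 5 (0.05) and without null library 2 (0.083), 4 (0.00029) or 5 (0.00061), and the cause was not tested. No library could be left out for *Kcnh2*. With the longest transcript, the mean log2 ratio of *Kcnq1* to *Akap9* went from 0.34 to 0.069 and no longer passed, and that of *Akap9* to *Kcne3* rose from 0.15 to 0.42 and passed, since the merged exons and the longest transcript differ by a different factor for each gene. *Kcne2* had 4 to 15 and *Kcne4* 16 to 35 read pairs per library, which limits their precision. No paired analysis was possible because the group means carry no replicate numbers.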
